A study of Homo sapiens with 34 samples.

Results

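The OAS family consists of the 2'-5'-oligoadenylate synthetases OAS1, OAS2 and OAS3 and the OAS-like protein OASL, and it was followed here across LNCaP prostate cancer cells in androgen-dependent (AD) and androgen-independent (AI) growth. Members were chosen by gene symbol alone. Of the 4 symbols, OAS1 (ENSG00000089127.12) and OASL (ENSG00000135114.12) had a row among the 28071 genes of the RNA-seq table and among the 25035 genes of the RNA immunoprecipitation (RIP) table; the RNA of OAS2 and OAS3 was not analysed here, and these genes enter only through their promoter and their chromatin. LNCaP is an established human line derived from a lymph node metastasis of prostate cancer. AD cells were grown in RPMI1640, and AI cells in the same medium with serum stripped by charcoal, a treatment that removes steroid hormones. RNA-seq covered 6 groups of 2 libraries: AD untreated, AI untreated, AD mock (the control siRNA named NC), AI mock, AD siEZH2 and AI siEZH2, the transfected cells being collected 24 hours after Lipofectamine 2000. The remaining data were RIP with anti-EZH2 or IgG in AD and AI cells (4 groups of 2) and ChIP-seq peak lists for H3K27me3 (2 AD, 2 AI) and for EZH2 (2 AD, 1 AI). The transfection protocol in the labels names only the LNCaP/abl subline and is attached to untreated libraries as well; the library titles, which give AD and AI for both siRNAs, were followed. The labels do not say that the replicates of a group were separate cultures, so the p-values below measure the spread between these libraries, which may be technical.

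OAS enzymes are sensors of double-stranded RNA. On binding it, OAS1, OAS2 and OAS3 join ATP into short 2'-5'-linked oligoadenylates (2-5A), which act as a signal in antiviral defence. OASL lacks this synthetase activity and carries ubiquitin-like domains; it is known to raise signalling by the RNA sensor RIG-I and to inhibit the DNA sensor cGAS. Interferons of type I and III induce the family through JAK1, TYK2 and a transcription factor complex that includes STAT2 and IRF9 and binds the interferon-stimulated response element (ISRE), and OASL can also be induced directly by IRF3. The methyltransferase EZH2, catalytic subunit of Polycomb repressive complex 2, trimethylates lysine 27 of histone H3 (H3K27me3), a mark of silent genes.

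The promoters are shown because interferon-responsive motifs lie in them and because the chromatin data below were read over the same windows. Each runs from 250 bases before to 50 bases after the start given by RefSeq (GRCh38.p14), 5' to 3' on the plus strand. Entries for OAS1 and OAS3 were matched, and OAS2 and OASL had no match. Capitals mark every match to the IRF core AANNGAAA or to the ISRE core, which is 2 copies of GAAA with any 2 bases between them, searched on both strands; an ISRE core contains an IRF core, so the matches overlap.
OAS1, chr12:112906712-112907011: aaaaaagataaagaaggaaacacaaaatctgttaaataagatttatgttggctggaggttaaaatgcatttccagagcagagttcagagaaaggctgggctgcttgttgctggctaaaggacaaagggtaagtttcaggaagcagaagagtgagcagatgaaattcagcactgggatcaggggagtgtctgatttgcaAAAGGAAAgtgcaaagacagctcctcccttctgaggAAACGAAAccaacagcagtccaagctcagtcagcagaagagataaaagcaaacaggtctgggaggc
OAS3, chr12:112938224-112938523: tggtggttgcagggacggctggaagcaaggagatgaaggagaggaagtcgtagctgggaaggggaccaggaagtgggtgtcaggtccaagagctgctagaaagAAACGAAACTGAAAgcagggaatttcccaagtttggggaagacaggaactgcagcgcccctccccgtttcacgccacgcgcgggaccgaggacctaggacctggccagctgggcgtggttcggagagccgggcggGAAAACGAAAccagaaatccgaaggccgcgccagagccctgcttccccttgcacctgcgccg
The OAS1 window held 2 IRF cores, beginning 52 and 16 bases before the start, and no ISRE core as defined here. The core at 16 bases, read with the base before it, is GAAACGAAA, 2 copies of GAAA with 1 base between. That spacing was not searched for in any promoter. The window also held 1 match to the STAT motif TTCNNNGAA, 168 bases before the start and not in capitals. The OAS3 window held 2 ISRE cores, beginning 143 and 12 bases before the start, and 3 IRF cores overlapping them. Among 27305 promoters of the same length, 3.65% held the ISRE core, 23.2% the IRF core and 7.88% TTCNNNGAA. Among 30 promoters of interferon-induced effector genes the counts were 22, 26 and 7. These matches describe letters in the sequence, not occupied sites.

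Both measured members lie on the long arm of chromosome 12, in separate places. OAS1 spans 112906962-112933219, OAS3 112938474-112973251 and OAS2 112978519-113011723, which together form a cluster of 104.762 kb, and OASL lies at 121017761-121039246 (GRCh38.p14).

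OASL was nearly absent in untreated AD cells and was among the highest-ranking changes of the transcriptome after transfection of the same cells. Levels are in RPKM, reads scaled by transcript length and by library depth, which allows levels of different genes to be compared per length. OASL stood at 0 and 0.02 RPKM in the 2 AD untreated libraries and at 0.60 and 0.62 in AI untreated. After mock transfection it stood at 64.5 and 58.3 RPKM in AD and at 0.34 and 0.26 in AI. With siEZH2 it stood at 80.1 and 80.2 RPKM in AD and at 0.39 and 0.32 in AI. The 4 transfected AD libraries thus lay far above the other 8, which all stayed below 1 RPKM. By group mean the order was AD siEZH2 (80.1 ± 0.0636 RPKM, SD, n = 2), AD mock (61.4 ± 4.40), AI untreated (0.61 ± 0.0141), AI siEZH2 (0.355 ± 0.0495), AI mock (0.30 ± 0.0566) and AD untreated (0.01 ± 0.0141). The ranges of AI siEZH2 and AI mock overlapped, and no other neighbours in that order did.

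OAS1, the member that makes short 2-5A chains, followed the same order at lower amplitude. It was listed at 0.14 RPKM in both AD untreated libraries and at 1.01 and 1.08 in AI untreated. After mock transfection it stood at 8.48 and 7.62 RPKM in AD and at 0.16 and 0.27 in AI. With siEZH2 it stood at 9.26 and 9.59 RPKM in AD and at 0.37 and 0.16 in AI. The 4 transfected AD libraries again lay above all others and the AI untreated pair came next, while the ranges of AI siEZH2 (0.265 ± 0.148, SD, n = 2) and AI mock (0.215 ± 0.0778) overlapped.

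The proportion between both members differed between groups. OASL was at 0 and 0.143 times OAS1 in AD untreated, where both are near 0. It was also the less abundant transcript per length in untreated AI cells, at 0.594 and 0.574 times OAS1. In AD mock it was 7.61 and 7.65 times OAS1, and in AD siEZH2 8.65 and 8.36 times. In the 4 transfected AI libraries the ratio lay between 0.963 and 2.13, where each gene rested on an estimated 1.21 to 3.44 reads per kb and the ratio is correspondingly imprecise.

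**Figure D1:**
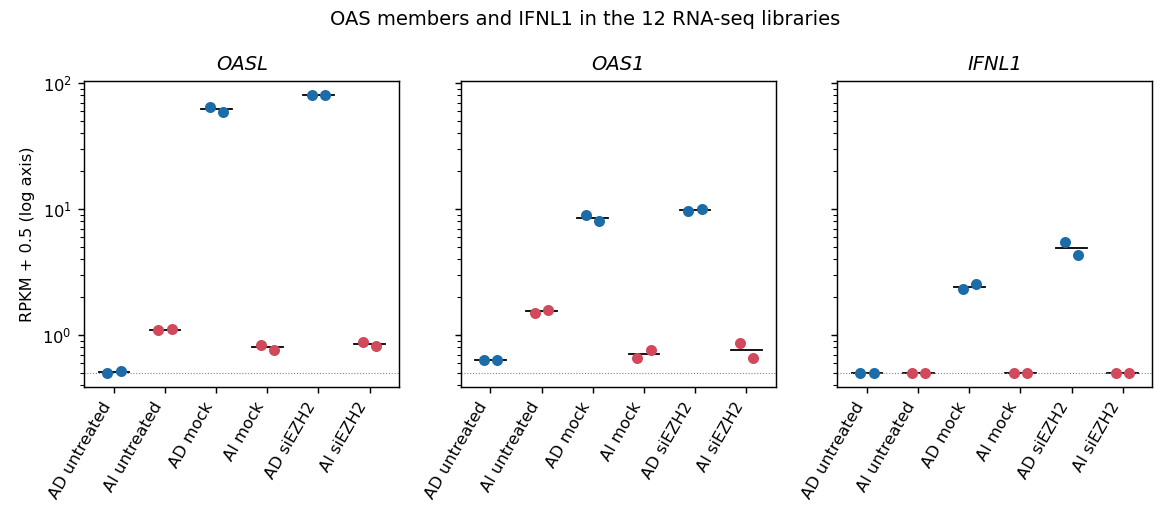
RPKM plus 0.5 on a log axis for OASL, OAS1 and IFNL1 in the 6 groups of 2 RNA-seq libraries; points are libraries (blue AD, red AI), bars are group means and the dotted line is a value of 0. OASL reaches 58.3 to 80.2 RPKM in the transfected AD libraries and stays below 1 RPKM in the other 8, and IFNL1 is above 0 in the transfected AD libraries only.

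Depth and identity of the libraries bear on these levels. Estimated depth ran from about 7550000 to 58200000 reads over the RNA-seq libraries, with untreated libraries the deepest; the estimate rests on 3 to 23 low values per library and is approximate. Mitochondrially encoded genes made up 18.4% to 33.4% of the summed RPKM in untreated libraries and 2.10% to 4.07% in transfected ones, so transfection and this library property moved together; its part in the changes below was not tested. The 10 luminal prostate markers were above 0 in every group, with summed levels of 2606 to 6929 RPKM. The 7 leukocyte markers, which stand for cells rich in OAS transcripts, summed to 0 to 0.5 RPKM, with 0.04 and 0.09 in AD mock and 0.06 and 0.50 in AD siEZH2, where the members were highest; their part in the result was not tested. The 4 basal markers summed to 0.22 to 4.64 RPKM and the 7 stromal and endothelial markers to 1.36 to 5.83 RPKM. In bulk RNA, fewer cells expressing a gene and less RNA per cell cannot be told apart.

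Both members passed the filter of at least 0.5 RPKM in 2 libraries, each through AI untreated, AD mock and AD siEZH2 alone. Changes below are differences of log2(RPKM + 0.5), which understate the change of genes near 0, with standard errors and Benjamini-Hochberg adjusted p-values from limma fitted over all 14227 genes tested. In untreated cells both members were higher in AI than in AD. OAS1 was higher by 1.27 (SE 0.170, adjusted p = 5.10e-04) and OASL by 1.12 (SE 0.125, adjusted p = 1.81e-04), and the 2 AI libraries lay above the 2 AD libraries for each gene. In this comparison 22.2% of all tested genes were called higher and 12.4% lower, with a median change of 0.13. By size of change OAS1 ranked 443 and OASL 702 of 14227.

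After mock transfection the order of AD and AI was the opposite. OASL differed between AI and AD by -6.27 (SE 0.125, adjusted p = 1.18e-08), rank 3 from the bottom of all tested genes, and OAS1 by -3.58 (SE 0.170, adjusted p = 5.34e-07), rank 61 from the bottom. Of all genes, 43.5% were called lower and 12.2% higher here, with a median of -0.41. With siEZH2 the differences were -6.56 for OASL (adjusted p = 7.72e-09) and -3.71 for OAS1 (adjusted p = 4.65e-07), where 47.1% of genes were called lower, 10.6% higher and the median was -0.48. The mock and siEZH2 comparisons use different libraries.

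Set against untreated cells, mock transfection raised both members in AD and lowered both in AI. In AD the change was 6.92 for OASL (SE 0.125, adjusted p = 4.66e-09), rank 2 of 14227 genes, and 3.74 for OAS1 (SE 0.170, adjusted p = 8.87e-07), rank 21. In that comparison 37.6% of genes were called higher and 7.73% lower, with a median of 0.35. In AI the change was -1.12 for OAS1 (adjusted p = 3.79e-04) and -0.47 for OASL (adjusted p = 0.00883), against 35.5% of genes called lower, 21.5% higher and a median of -0.20. The OASL fall in AI cells was the one member call that changed with the processing: it was -0.11 (adjusted p = 0.499) with quantile normalization, -0.47 (adjusted p = 0.0725) with only the compared groups in the fit, and -0.40 (adjusted p = 0.0598) without AI mock replicate 2. The difference between the AI and AD responses was itself tested as an interaction and reached -7.40 for OASL (SE 0.176, adjusted p = 3.08e-08) and -4.85 for OAS1 (SE 0.240, adjusted p = 1.44e-06); 41.2% of genes were called in this direction, 8.99% in the other, and the median was -0.54. Untreated and transfected libraries differ in depth and mitochondrial share as given above, and the labels name no shared batch, so transfection and library set cannot be told apart.

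The siRNA against EZH2 gave no member call. EZH2 itself stood at 11.0 and 12.5 RPKM in AD mock and 11.5 and 10.7 in AD siEZH2, a change of -0.07 (adjusted p = 1, limma), so no knockdown was detected in AD. In AI it stood at 7.07 and 5.44 RPKM with mock and 3.60 and 4.33 with siEZH2, a change of -0.59 (adjusted p = 0.126, limma). OASL was higher in both AD siEZH2 libraries than in both AD mock libraries, by 0.38 with a 95% interval of 0.10 to 0.66 (adjusted p = 1, limma). By size of rise it ranked 536 of 14227 genes, of which 544 had an unadjusted p under 0.05 in this comparison. OAS1 differed by 0.22 in AD (95% interval -0.16 to 0.60). In AI the differences were 0.10 for OASL (95% interval -0.18 to 0.38, adjusted p = 0.752, limma) and 0.09 for OAS1 (95% interval -0.29 to 0.47, adjusted p = 0.849, limma). Of all tested genes, 0.0141% were called in AD, 1.46% in AI and 0 for the difference between both effects, where 976 genes had an unadjusted p under 0.05. That difference was -0.29 for OASL (adjusted p = 0.833, limma) and -0.13 for OAS1 (adjusted p = 0.976, limma).

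Interferons, the ligands that induce the family, were above 0 in the libraries where the members were highest, and at 0 in AI untreated, where OAS1 and OASL were at 0.60 to 1.08 RPKM. The list held 10 interferon genes, 4 of which had a row and 2 of which passed the filter. IFNL1, a type III interferon, was listed at 0 in all untreated and all AI libraries, at 1.83 and 2.04 RPKM in AD mock and at 5.04 and 3.81 in AD siEZH2. IFNL1 passed the filter through AD mock and AD siEZH2 alone, so its difference from untreated cells is given without a test, and its difference between siEZH2 and mock in AD was 1.01 (adjusted p = 0.329, limma). IFNB1, the early type I interferon, was at 0.12 and 0 RPKM in AD mock, at 0.98 and 0.68 in AD siEZH2 and at 0 elsewhere. IFNL3 was at 0.14 and 0.11 RPKM in the AD mock libraries and again in the AD siEZH2 libraries, and IFNL2 at 0.23 in a single AD siEZH2 library. All 4 ligands were thus above 0 in transfected AD libraries only, at levels that rest on few reads.

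Of 3 partners of the 2-5A pathway, 2 were higher in AI and 0 lower in untreated cells, and 0 were higher and 1 lower with mock (1 and 1 with quantile normalization or TMM scaling). Over all genes the shares were 22.2% higher and 12.4% lower in untreated cells, and 12.2% and 43.5% with mock. ABCE1, a ribosome recycling factor, was higher in AI untreated (1.22, adjusted p = 0.0156, limma) and at -0.56 in AI mock against AD mock (adjusted p = 0.165). PDE12, which degrades 2-5A, was at 0.77 in untreated cells (adjusted p = 0.0107, limma) and at 0.16 with mock (adjusted p = 0.496). ENPP1, a phosphodiesterase that can also cleave 2-5A, was lower in AI mock (-1.31, adjusted p = 4.22e-04, limma), where it stood at 0.45 and 0.59 RPKM against 2.01 and 2.04 in AD mock. The calls of ABCE1 and PDE12 in untreated cells were lost with only the compared groups in the fit (adjusted p = 0.0682 and 0.0729), without AD untreated replicate 1 (0.103 and 0.0693) and without AI untreated replicate 2 (0.0883 and 0.0514).

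Genes of the interferon pathway, listed by role, were compared in the same fits, with results of these data already known when the lists were drawn. In untreated cells, where 22.2% of all tested genes were higher in AI and 12.4% lower, the calls varied by list. Of 7 transcription factors tested, 2 were higher in AI and 0 lower (median 0.49): STAT3 at 1.25 and IRF7, which amplifies type I interferon induction, at 1.20 (adjusted p = 2.85e-05 and 0.00391, limma). Of 10 sensors and adaptors, 5 were higher and 1 lower (median 0.53), with the RNA helicases RIGI at 1.18, DHX58 at 0.94 and IFIH1 at 0.88. Of 8 receptors and kinases, 1 was higher (JAK2 at 1.21) and the median was 0.03; the calls of JAK2 and IRF7 were lost with only the compared groups in the fit (adjusted p = 0.0615 and 0.0572, limma). Of 24 interferon-induced effectors, 7 were higher and 6 lower (5 and 6 with quantile normalization, 4 and 6 with TMM scaling; median 0.38, all genes 0.13), so the members stood with one part of a divided list. IFI35 was higher by 2.44, whereas the membrane-associated antiviral proteins IFITM2 and IFITM1 were at -4.37 and -2.39, IFITM2 at 20.7 and 12.1 RPKM in AD against 0.46 and 0.15 in AI.

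After mock transfection the effectors, transcription factors and sensors lay on the same side as the members. Of the 24 effectors tested, 7 (RSAD2 among them) passed the filter through transfected AD groups alone, PLSCR1 through AD siEZH2 only. The filter favours a difference in these 7, so they are set apart. Of the other 17, 16 were lower in AI and 0 higher, with a median of -3.09 against -0.41 for all genes, of which 43.5% were lower and 12.2% higher. Over all 24, 23 were lower (18 with quantile normalization, 21 with TMM scaling). The counts under these scalings include the 7 and are not given for the 17 alone. IFITM2 was at -5.41, IFITM1 at -4.55, IFI44 at -4.23 and BST2, which tethers enveloped viruses to the cell surface, at -4.21. Of these, IFITM2, IFITM1 and BST2 were already lower in AI in untreated cells (-4.37, -2.39 and -1.63), unlike IFI44 (1.06) and the members. For IFITM2 the difference between the AI and AD responses was -1.04 (adjusted p = 0.137, limma). OASL, at -6.27, lay beyond every effector tested, and OAS1, at -3.58, lay inside their range of -5.41 to -0.01. All 7 transcription factors tested were lower (6 with quantile normalization, 5 with TMM scaling), led by STAT2 at -1.81, IRF2 at -1.57 and IRF5 at -1.51. IRF7 was at -1.30.

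The sensors behaved like the transcription factors. IFIH1 stands on both the sensor list and the effector list and is counted in each, so these lists are not fully separate. Of 10 tested, 8 were lower in AI mock (7 with quantile normalization, 8 with TMM scaling): RIGI at -2.78, DHX58 at -2.16 and IFIH1 at -1.94, and among signalling proteins the kinase IKBKE at -1.45. Receptors and kinases were the exception, since 6 of 8 were lower and 0 higher on the deposited scale, but 0 were lower and 1 was higher with either quantile normalization or TMM scaling. IFNAR1, a chain of the type I receptor, was at -0.74 (-0.12 and -0.31 under those scalings), and IL10RB, which serves type III interferons, at -0.72 (-0.19 and -0.26). JAK1 reached 0.5 RPKM in 5 of the 12 libraries, none of them AD mock or AD siEZH2, where the members were highest. IFNLR1, another receptor gene of the list, reached 0.5 RPKM in 0 libraries and so was not fitted. Whether these levels bear on the members was not tested. None of the 4 feedback inhibitors tested was called on the deposited scale. USP18, an interferon-induced inhibitor of the type I receptor with a near-identical paralog that may share its reads, stood at 18.9 and 21.0 RPKM in AD mock and at 21.2 and 18.8 in AI mock, a difference that turned to 0.48 (adjusted p = 0.00395, limma) with TMM scaling.

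**Figure D2:**
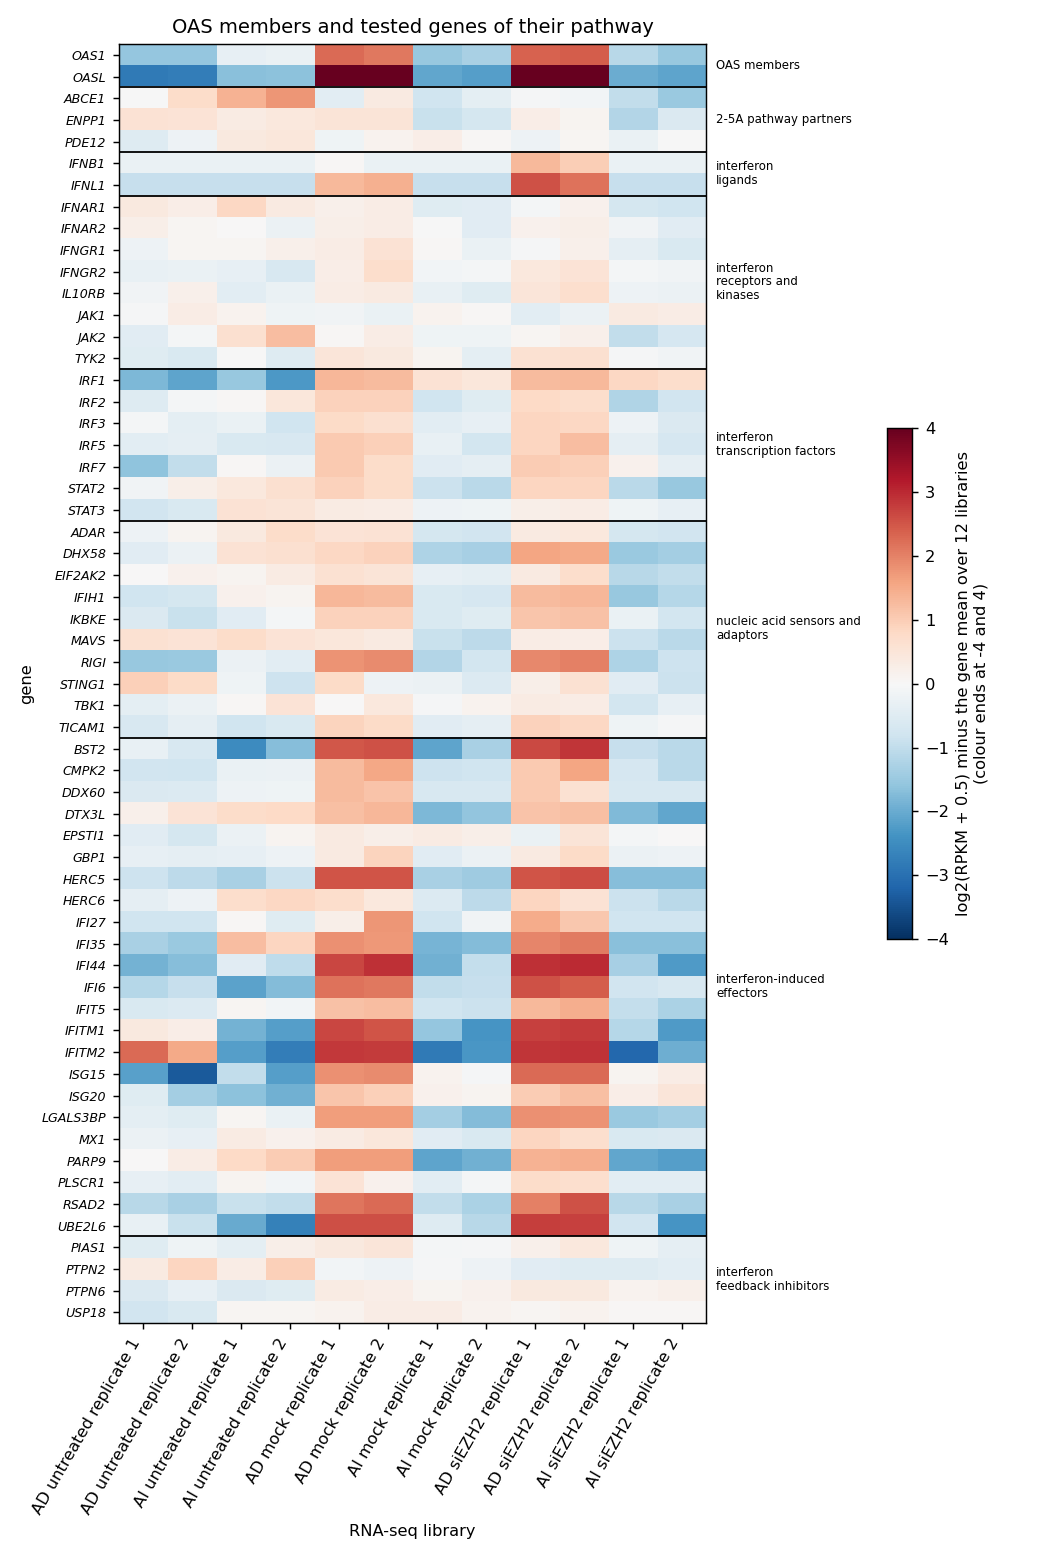
log2(RPKM + 0.5) of the 59 tested genes of the lists minus each gene's mean over the 12 RNA-seq libraries, in columns by library and rows by role; red is above and blue below the gene's mean, and colours end at -4 and 4. OAS1, OASL and most interferon-induced effectors are red in the 4 transfected AD libraries, while USP18 and the receptors show little colour.

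On mock transfection of AD cells, 16 of those 17 effectors rose and 0 fell, with a median of 2.04 against 0.35 for all genes, of which 37.6% rose and 7.73% fell. Over all 24, 23 rose (18 with quantile normalization, 20 with TMM scaling). Here too the scaled counts include the 7 effectors that passed the filter through transfected AD groups alone. All 7 transcription factors tested rose (6 with either scaling; STAT2 did not pass with either) and 7 of 10 sensors rose (5 with either scaling, each with 1 lower). IRF1, which activates interferon genes, rose by 3.26, from 1.33 and 0.97 RPKM to 15.5 and 14.9, and RIGI rose by 3.35, from 0.17 and 0.19 to 6.14 and 6.69. In AI cells the effectors moved near the shares of all genes, 21.5% of which rose and 35.5% fell. There 4 effectors rose and 8 fell (4 and 5 with quantile normalization, 4 and 8 with TMM scaling), with a median of -0.27 against -0.20 for all genes. Of the transcription factors 1 rose and 3 fell (2 and 3, and 1 and 3, under those scalings), and of the sensors 0 rose and 6 fell (1 and 3, and 1 and 4). IRF1 rose in AI as well, by 2.42 (adjusted p = 1.75e-05, limma), from 1.72 and 0.78 RPKM to 8.92 and 8.15. OAS1 and OASL did not rise there, and whether IRF1 bears on their levels was not tested. The IRF1 response differed between AI and AD by -0.84 (adjusted p = 0.0517, limma), and its side of the threshold changed with the processing. It was called with a pseudocount of 1 (adjusted p = 0.0261, limma) and with a replicate block (adjusted p = 0.0289, limma). STAT2 fell in AI by 1.51 on the log2 scale.

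**Figure D3:**
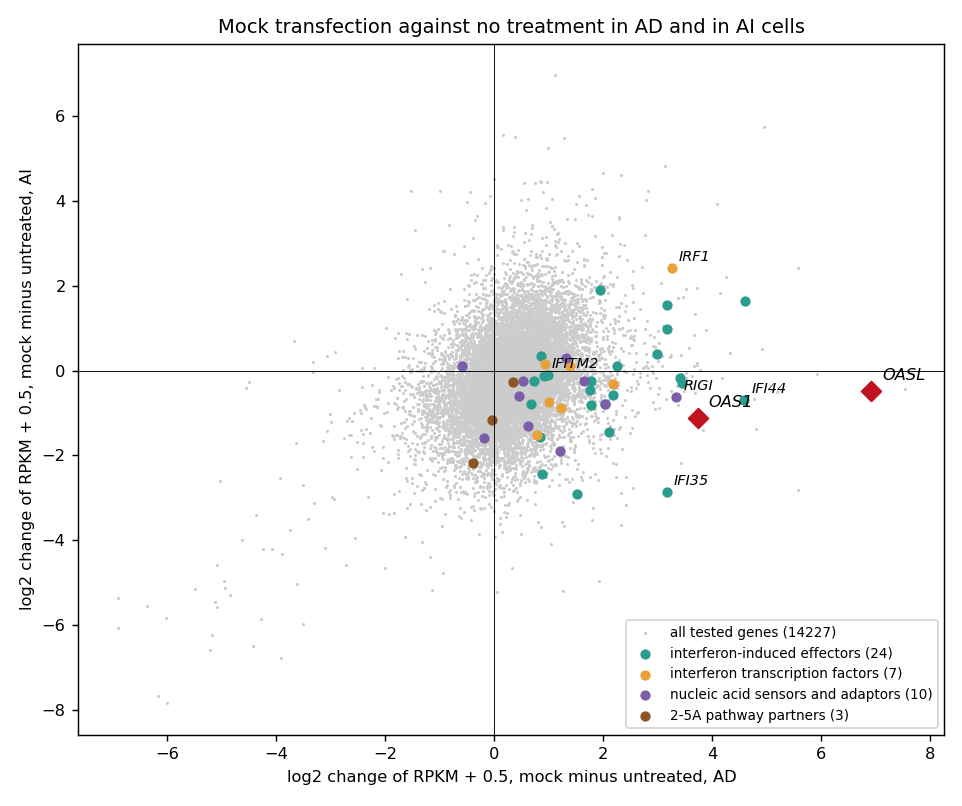
Change of log2(RPKM + 0.5) from untreated to mock in AD cells (horizontal axis) and in AI cells (vertical axis) for 14227 tested genes (grey), 4 lists (coloured points) and the OAS members (red diamonds). OASL lies at 6.92 and -0.47 and OAS1 at 3.74 and -1.12, while IRF1 is high on both axes, at 3.26 and 2.42.

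The genes whose profiles over the 12 libraries were most like each member were named by Pearson's r of log2(RPKM + 0.5) among 10384 genes with a symbol and a mean of 1 RPKM or more. OAS1 and OASL correlated with each other at 0.984. For OAS1 the 5 nearest were APOL1 (0.994), TACC3 (0.992), SUSD4 (0.991), NSFL1C (0.991) and PLAAT4 (0.990). For OASL they were CHST2 (0.995), RSAD2 (0.993), RBBP7 (0.993), SAA1 (0.993) and SUSD4 (0.992). RSAD2, the antiviral enzyme viperin, stood at 4.99 and 5.46 RPKM in AD mock and at 0.17 or less in all untreated and AI libraries. TACC3, a protein of the mitotic spindle, stood at 131.5 and 135.3 RPKM in AD mock and 65.3 to 93.0 elsewhere outside AD transfection, so likeness of profile did not require a like amplitude. The 12 libraries form 6 groups of 2 that share treatment, and 521 genes for OAS1 and 554 for OASL exceeded r = 0.9, so these values describe the pattern of groups and carry no test.

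Protein-coding genes within 250 kb of the loci were read to place the members in their neighbourhood. There were 14, of which 8 were tested. In untreated cells 1 of the 8 was called, TPCN1 at -0.86 (adjusted p = 0.00300, limma). With mock, 6 of 8 were lower in AI, against 43.5% of all genes. On mock transfection of AD cells 4 of the 8 rose and 1 fell, where 37.6% of all genes rose and 7.73% fell. The 1 that fell was TPCN1, 209.741 kb from the cluster, at -0.82, against 3.74 for OAS1.

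H3K27me3 was read from the authors' peak lists, 1 per sample, each scored by the authors; with 2 lists per group no test was made. In OAS1 it covered 34.3% and 22.4% of the gene body in the AD lists (8997 and 5878 bases in 3 peaks each) and 8.72% and 10.6% in the AI lists (2290 and 2783 bases in 2 peaks and 1 peak). The AD and AI lists did not overlap in this value, and the AI peaks at OAS1 all scored below the median of their lists while the AD peaks all scored above it. How many of all genes separate the AD and AI lists in this way was not counted. With 2 lists a group, no change of the mark at OAS1 is therefore read from these values. The lists covered 229.6 and 184.4 Mb in AD and 228.5 and 213.6 Mb in AI. No H3K27me3 peak touched the 300-base promoter windows of OAS1 or OAS3. Within 2.5 kb of the OAS1 start, 1 list held a peak, AD replicate 1, with 1098 bases.

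Across the cluster the mark was uneven. OAS2 was covered over 43.7% and 41.3% of its body in AD and 53.5% and 32.3% in AI, so AD and AI overlapped there. OAS3, which lies between OAS1 and OAS2, had 0 covered bases in its body in all 4 lists. OASL, the member with the larger RNA differences after transfection, also had 0 covered bases in its body in all 4 lists. The ChIP titles name no siRNA, so these lists are not matched to the transfected RNA libraries. In untreated cells the AI minus AD difference was 1.12 for OASL and 1.27 for OAS1. AI replicate 1 held 1 peak of 2591 bases beginning 3.226 kb past the higher-coordinate end of OASL. Of 20037 protein-coding genes, 22.8% and 24.1% had a peak in the body or within 5 kb in the AD lists and 25.6% and 30.4% in the AI lists. By that count 2 and 3 of the 4 OAS loci had a peak in AD, and 3 and 2 in AI.

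EZH2 peaks at the loci came mainly from 1 list. AD replicate 1, with 53911 peaks, placed 3 peaks in OAS1 and 2 each in OAS2, OAS3 and OASL, where 55.6% of all genes had a peak. AD replicate 2, with 12399 peaks, had 0 at the 4 loci, where 27.5% of genes had one. The AI list, with 11933 peaks, had 1 peak of 848 bases in OAS1, beginning 12.064 kb from its start, where 25.0% of genes had one. The AD lists disagreed at every OAS locus, so no EZH2 peak at the family was found in both.

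**Figure D4:**
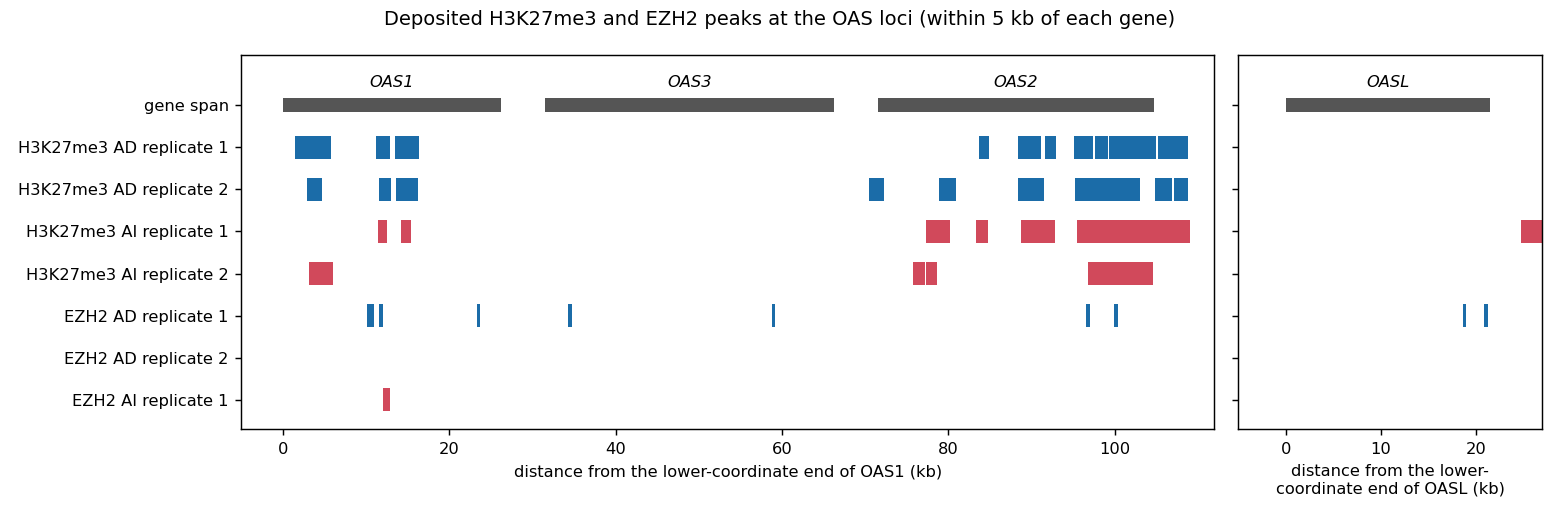
Peaks from the 7 deposited lists (rows; blue AD, red AI) within 5 kb of the OAS genes, by distance in kb from the lower-coordinate end of OAS1 (left) and of OASL (right), with gene spans in grey. H3K27me3 bars lie over OAS1 and OAS2 but not over OAS3 or OASL, and EZH2 AD replicate 2 has no bar.

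EZH2 RIP, in which RNA crosslinked to the protein by ultraviolet light is sequenced, held almost no reads of the members. OAS1 was at 0.12 and 0.14 RPKM in the AD EZH2 libraries and at 0 and 0.42 in the AI EZH2 libraries. OASL was at 0 and 0.04 RPKM in AD EZH2 and at 0.08 and 0.20 in AI EZH2. Both were at 0 in all 4 IgG libraries, where a single read on 1 kb already equals 0.539 to 12.3 RPKM, so these zeros carry little information. The values correspond to an estimated 1.93 reads per kb at most. Neither gene passed the filter; fitted without it, the differences from IgG were 0.33 (OAS1, AD), 0.44 (OAS1, AI), 0.06 (OASL, AD) and 0.35 (OASL, AI), with adjusted p of 0.695, 0.490, 0.930 and 0.266 in limma. Of 86 genes on the pathway lists, 45 were tested in RIP and 0 were called, as were 0% of all 13667 genes, of which 1383 in AD and 2930 in AI had an unadjusted p under 0.05. The RIP titles name no siRNA, and in untreated cells the RNA of the members was itself low. By RNA-seq group mean, OASL stood there at 0.01 RPKM in AD and 0.61 in AI, and OAS1 at 0.14 and 1.045. Enrichment of OAS transcripts with EZH2 was therefore not detectable at this depth and at these RNA levels.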

How the data were processed

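The authors deposited RPKM values per gene for RNA-seq (12 libraries) and RIP (8), and ChIP peak lists with a score per peak; cutadapt, TopHat2, edgeR, Bowtie2 and GRCh38 are named in the submitters' processing notes, and what the score measures is not given in the sources used here. RNA was poly(A)-selected and libraries directional, per the labels' protocols. Depth was estimated from the steps of low deposited RPKM values. Here log2(RPKM + 0.5) of genes with at least 0.5 RPKM in 2 libraries was fitted with limma 3.58.1 (R 4.3.3; eBayes with trend, 1 coefficient per group, all libraries of a table, Benjamini-Hochberg at 0.05), after a check on simulated data. Both the members and the gene lists were chosen with earlier results of these data known. Genes were named by role, by the 4 largest changes per list among genes with a mean of at least 1 RPKM, by the 5 highest correlations per member, and by position within 250 kb. Symbols were matched for 22627 of 28071 genes. Peaks were counted if they overlapped a gene by 1 base, or lay within 5 kb on either side because strand was known here for OAS1 and OAS3 alone. No per-sample column was left unmapped. Alternatives were other pseudocounts (0.1 and 1), no filter, quantile and TMM scaling, fewer groups, a replicate block, leaving out each library, a higher score and a longer overlap. Some genes that the rule names are not reported here.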

Additional observations from a re-analysis of the deposited data

Results flagged for a closer look

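The response to mock transfection differed between AI and AD cells in 21 of the named results, each by limma's interaction test of the difference itself, where 41.2% of all tested genes were called in the same direction. Many named genes were picked for a large AI minus AD change in untreated or mock cells, from which this difference is formed. The count therefore follows in part from how they were picked. PDE12, IL10RB, IRF1, IFITM2 and TPCN1 were fitted too and not called (adjusted p from 0.0517 to 0.201, limma). OASL differed by -7.40 and OAS1 by -4.85 (adjusted p = 3.08e-08 and 1.44e-06, limma), both rising in AD and not in AI. Among effectors IFI35 differed by -6.03, IFI44 by -5.29, BST2 by -2.59 and IFITM1 by -2.16. Among sensors RIGI differed by -3.96, DHX58 by -3.10, IFIH1 by -2.82 and IKBKE by -1.91. Among transcription factors IRF7 differed by -2.50, STAT2 by -2.29, IRF2 by -2.12, STAT3 by -1.75 and IRF5 by -1.29. The remaining ones were ABCE1 at -1.78, EZH2 at -1.72, JAK2 at -1.56, ENPP1 at -1.13, IFNAR1 at -0.999 and the feedback inhibitor USP18 at -0.76. Adjusted p lay between 3.08e-08 and 0.00889 in limma. Under both quantile normalization and TMM scaling the calls of ABCE1, ENPP1, IFNAR1, IRF5 and USP18 were lost, JAK2 was lost with quantile normalization (-0.81, adjusted p = 0.0893, limma) and IFITM1 with a pseudocount of 0.1 (-2.31, adjusted p = 0.0719, limma). IFNL1 and RSAD2 were not considered here, since they passed the filter through the transfected AD groups alone. Every group held 2 libraries, so no group was large enough to look for a single outlying library.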

How the results depend on the processing

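Of 214 recomputed values for OAS1 and OASL, 211 kept their direction and their side of the threshold. The other 3 were the fall of OASL in AI cells on mock transfection (-0.47): -0.11 with quantile normalization, -0.47 with only the compared groups in the fit, and -0.40 without AI mock replicate 2. Over all fits with 1 library left out, this change ran from -0.55 to -0.40. Among the other named genes 1022 of 1075 values kept theirs, and 1 reversed: USP18 in AI mock against AD mock, 0.48 with TMM scaling. The cause was not tested.

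Counts of genes called moved more. For siEZH2 against mock in AD, 2 genes became 1 (pseudocount 0.1), 0 (pseudocount 1, quantile, TMM, replicate block, compared groups alone, or any library left out) and 45 (no filter). In AI, 208 became 11 (quantile), 28 (TMM), 371 (replicate block), 431 (compared groups alone) and 0 with any library left out, including each AI mock and AI siEZH2 replicate. For the difference between both siRNA effects, 0 became 1 (pseudocount 0.1 or compared groups alone) and 38 (no filter). For untreated AI against AD, 4922 became 1593 with the compared groups alone. In RIP, 0 became 483 in AD and 1338 in AI with a replicate block, and 0 to 701 in AI when a library was left out, 701 being without AI IgG replicate 1.

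Calls split 3158 higher and 1764 lower in untreated AI against AD, but 2336 and 2291 with quantile normalization and 2080 and 2416 with TMM. With mock they split 1731 and 6188, against 3440 and 3522, and 3614 and 4028. With siEZH2 they split 1508 and 6698, against 3225 and 3358, and 3496 and 4007. Mock against untreated gave 5355 and 1100 in AD (2634 and 2483, 2681 and 2306) and 3064 and 5057 in AI (3727 and 3810, 4017 and 4080). The interaction gave 1279 and 5860 (2620 and 2902, 2945 and 3112). These scalings bring the median change of all genes, -0.41 for mock AI against AD, to 0.02 and -0.03.

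Same-numbered libraries deviated together in untreated cells (r = 0.701 across genes), not with mock (0.0617), and in RIP at 0.332 and 0.240 between EZH2 and IgG (AD and AI) and 0.713 between the EZH2 libraries; with 2 libraries a group the numbers are not shown to pair them. With a replicate block OASL stayed at -6.27 for mock AI against AD (adjusted p = 8.96e-08, limma), and no OAS1 or OASL call changed. Among AI H3K27me3 lists, 1 OAS locus in place of 3 (replicate 1) or 2 (replicate 2) had a peak in the part of the list above the median score; the overlap of 200 bases changed no count. The start window could be set for OAS1 and OAS3 alone. OAS1 and OASL in transfected AI libraries rest on 1.21 to 3.44 estimated reads per kb, and depth limits every RIP value.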
